A study of Homo sapiens with 18 samples.

Results

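The caveolae genes CAV1, CAV2, CAV3, CAVIN1, CAVIN2, CAVIN3, CAVIN4, EHD2 and PACSIN2 were followed in human melanoma cells that overexpressed the transcription factor MAFG. These 9 genes were taken by their names from a count table of 58870 genes, in 18 RNA-seq libraries. The lines WM164, SKMEL28 and A375, grown in RPMI with 5% FBS, were each transduced with a lentiviral vector carrying Myc-DDK-tagged MAFG or, as the control, GFP. In both arms the EF1α promoter drove the insert and blasticidin selected the transduced cells, and each of the 6 conditions had 3 libraries of total RNA. The labels do not say whether replicates were separate cultures, so p-values cover only the spread between these libraries, which may be technical. Total counts ranged from 20122172 to 39025042 per library, with a median of 31061375. The family was chosen by gene name when results of the same libraries, the MAFG against GFP fold changes among them, were already known. Its fold changes and adjusted p-values are therefore descriptions of size against replicate spread, and the counts of genes that passed are no evidence about the family.

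Caveolae are flask-shaped pits of the plasma membrane that buffer membrane tension, take part in lipid handling and gather signalling proteins. Caveolins are hairpin membrane proteins that form the bulb, and CAV1 is required for it in cells other than muscle, with CAV2 as its partner and CAV3 as the muscle form. Cavins are a cytoplasmic coat laid over the caveolin scaffold: CAVIN1 is needed to make caveolae, CAVIN2 and CAVIN3 shape the coat or tune it, and CAVIN4 belongs to muscle. EHD2 is an ATPase that holds the neck at the cell surface, and PACSIN2 is an F-BAR protein that senses and bends membrane there.

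CAV2 (ENSG00000105971.15) and CAV1 (ENSG00000105974.12) are neighbours on the plus strand of chromosome 7 in GRCh38, at chr7:116287380-116508541 and chr7:116524994-116561179, with 16452 bases between them. CAVIN2 (ENSG00000168497.5) is at chr2:191834310-191847088 and CAVIN3 (ENSG00000170955.10) at chr11:6318946-6320532, both on the minus strand. EHD2 (ENSG00000024422.12) is on the plus strand at chr19:47713422-47743134. CAVIN1 lies on chromosome 17, CAV3 on 3, CAVIN4 on 9 and PACSIN2 on 22, and all 9 are protein-coding genes of GENCODE release 44. An antisense lncRNA covers 1406 of the 1587 bases of CAVIN3, another overlaps CAV1 by 9252 bases, and CAVIN2-AS1 overlaps CAVIN2 by 555 bases. Antisense lncRNAs also overlap CAV2, by 212086 and 40517 bases. The labels name a kit for non-stranded libraries whereas the methods describe a strand-specific one, so reads of these genes and of their antisense partners may not be separated. Genes on the same strand overlap EHD2 (an lncRNA, 19677 bases), PACSIN2 (ARFGAP3, 22695 bases) and CAVIN1 (an lncRNA, 1318 bases), among others.

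The 250 bases upstream of the transcript start are shown for 4 genes: the adjacent pair CAV1 and CAV2, which share a neighbourhood, and CAVIN2 and EHD2, which passed 2-fold in A375 and SKMEL28 cells, respectively. They are RefSeq windows of GRCh38.p14, written 5′ to 3′ on the gene's strand, and for CAV1 and CAV2 the window with the lowest coordinates is given. The CAV2 window lies within the GENCODE span of CAV2 given above, which starts further upstream. Capitals mark a match to a searched motif.
CAV1 (chr7:116524759-116525008, plus strand): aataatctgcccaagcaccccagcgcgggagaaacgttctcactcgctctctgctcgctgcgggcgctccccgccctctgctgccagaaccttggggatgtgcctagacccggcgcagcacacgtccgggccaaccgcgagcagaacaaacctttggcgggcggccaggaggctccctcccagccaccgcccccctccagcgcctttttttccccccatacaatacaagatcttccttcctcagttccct
CAV2 (chr7:116499488-116499737, plus strand): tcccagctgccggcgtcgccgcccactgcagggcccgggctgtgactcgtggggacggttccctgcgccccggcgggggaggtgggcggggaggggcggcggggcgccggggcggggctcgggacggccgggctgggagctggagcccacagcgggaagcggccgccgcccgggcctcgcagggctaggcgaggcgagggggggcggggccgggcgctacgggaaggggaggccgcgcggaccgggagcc
CAVIN2 (chr2:191847089-191847338, minus strand): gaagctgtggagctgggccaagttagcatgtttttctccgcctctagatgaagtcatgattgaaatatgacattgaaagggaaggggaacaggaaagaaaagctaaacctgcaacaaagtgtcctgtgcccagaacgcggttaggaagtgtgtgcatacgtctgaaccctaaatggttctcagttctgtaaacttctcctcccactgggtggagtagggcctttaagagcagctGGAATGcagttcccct
EHD2 (chr19:47713172-47713421, plus strand): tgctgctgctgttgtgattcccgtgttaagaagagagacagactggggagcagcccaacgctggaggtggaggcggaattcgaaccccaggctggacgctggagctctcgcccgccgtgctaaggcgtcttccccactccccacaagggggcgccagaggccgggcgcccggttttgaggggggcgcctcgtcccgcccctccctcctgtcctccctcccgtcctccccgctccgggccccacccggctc
The motifs were the antioxidant response element core TGACNNNGC, the Maf core TGCTGA, the AP-1 site TGACTCA, the E-box CACGTG, the M-box CATGTG and the TEAD site GGAATG, each on both strands. The first 3 can overlap one another. They occurred in 10.9%, 14%, 4.2%, 6.34%, 9.42% and 11.9% of 35116 such windows, in that order. Among the windows printed, a single match was found, to GGAATG at 16 to 11 bases upstream of CAVIN2. Windows were present for 7 of the 9 genes, 15 windows in all, and 8 of these held a match. The others were a Maf core in the third CAV1 window and in that of CAVIN4, and TEAD sites, Maf cores and an M-box among the 6 windows of PACSIN2. A match is a string of letters, and no binding was measured here.

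MAFG itself served as the check of the labels. Its count rose 2.06-fold in WM164, from 24.4 ± 2.71 to 50.1 ± 4.43 CPM (mean ± SD, n = 3), with a log2 fold change of 1.04 ± 0.09 (SE) and an edgeR adjusted p of 6.37e-08. In SKMEL28 it rose from 23.0 to 35.7 CPM (edgeR adjusted p = 0.000128). In A375 it was 30.0 ± 5.63 CPM with GFP and 52.3 ± 8.86 with MAFG, without overlap, but did not pass the test (edgeR adjusted p = 0.0655). CPM is the count scaled to library size after TMM normalization within a line. In the authors' TPM, which is scaled by transcript length, the 3 lines had 2.89, 3.96 and 4.22 for MAFG in GFP cells and 24.5, 17.0 and 25.2 in MAFG cells (WM164, SKMEL28, A375). MAFG was thus higher in every MAFG library than in any GFP library of its line on either scale. In each line the rise was several times larger in TPM than in counts. The reason is not known, so the size of the overexpression depends on the scale.

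The lines differed in the levels of melanocyte markers. All 6 melanocyte markers (MITF, SOX10, PMEL, MLANA, TYR, DCT) reached 1 TPM in every library of WM164 and SKMEL28, but 2 of 6 did in A375, where MLANA and TYR were at 0. In A375 the summed marker level was 11.8 to 12.8 TPM with GFP and 35.9 to 47.3 with MAFG, and SOX10 rose 12.8-fold (log2 fold change 3.68 ± 0.21, edgeR adjusted p = 2.12e-05). In WM164 the sum was 902 to 1252 TPM with GFP and 593 to 685 with MAFG, and in SKMEL28 1765 to 1932 and 1284 to 1462. Endothelial, adipocyte, skeletal muscle and keratinocyte markers did not reach 1 TPM in all libraries of any condition, with CLDN5 and LEP at 0 throughout. Of 3 smooth muscle markers only ACTA2 reached 1 TPM, in A375 (sum 6.09 to 6.87 TPM with GFP, 4.07 to 5.27 with MAFG). Fibroblast markers reached 1 TPM for 0 to 2 of 5 genes, and of 3 leukocyte markers CD68 did while CD3E was at 0. In bulk RNA, fewer cells of a type and less RNA per cell cannot be told apart.

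In GFP cells A375 stood apart in caveola genes. CAV1, the core caveolin, was at 9.31 ± 1.06, 24.0 ± 3.90 and 175 ± 29.3 TPM in WM164, SKMEL28 and A375 (SD, n = 3). CAVIN1, the core coat protein, was at 1.73 ± 0.11, 19.6 ± 1.11 and 90.9 ± 3.72 TPM. For both genes the lines ranked WM164, SKMEL28, A375 with no overlap between libraries. In a model of all 18 libraries, A375 exceeded WM164 by a log2 difference of 3.58 ± 0.08 for CAV1 and 5.21 ± 0.11 for CAVIN1 (edgeR adjusted p = 9.26e-19 and 1.84e-19).

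CAV2 and EHD2 were also highest in A375, and PACSIN2 was lowest there. EHD2 was at 4.81 ± 0.19 TPM in WM164, 1.96 ± 0.20 in SKMEL28 and 73.1 ± 10.2 in A375, so its order between WM164 and SKMEL28 was the reverse of that of CAV1 and CAVIN1. PACSIN2 was at 51.2 ± 4.92, 60.9 ± 3.68 and 10.8 ± 1.74 TPM, lower in A375 than in WM164 by a log2 difference of -2.62 ± 0.08 on the count scale. CAV2 was at 5.27 ± 0.65, 7.47 ± 0.55 and 22.2 ± 3.70 TPM. The counts put CAV2 higher in WM164 than in SKMEL28 by 0.30 (log2, edgeR adjusted p = 0.0222), as they did PACSIN2 by 0.30 (edgeR adjusted p = 0.00231), whereas the mean TPM of both was higher in SKMEL28, so the order of these 2 lines depends on the scale.

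CAVIN2 was detected in GFP cells of A375 alone. It had 0 counts in all 3 GFP libraries of WM164 and of SKMEL28 and 1275, 1233 and 1127 counts in A375, which is at least 302-fold and 280-fold higher than the level of 3 counts per library in those lines. CAVIN3 followed another order, with 14.5 ± 2.09, 59.9 ± 2.08 and 33.3 ± 5.49 TPM in WM164, SKMEL28 and A375. CAVIN4 made 1.13 CPM in SKMEL28 and 0.30 and 0.32 CPM in WM164 and A375 (scaled over 18 libraries), and CAV3 had 0 counts in 18 of 18 libraries, where 3 counts would be at most 0.148 CPM. The muscle forms were thus at or near 0 in these cells.

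Counted over the 8 tested genes, 6 passed 2-fold between A375 and WM164 (background 46.7% of all tested genes), 7 between A375 and SKMEL28 (43.8%) and 4 between WM164 and SKMEL28 (28.7%). Passing 2-fold means an edgeR adjusted p of at most 0.05 and an absolute log2 fold change above 1, over 18767 tested genes. CAVIN2 passed the filter on low counts only through A375, so its calls in both A375 comparisons followed from that. It was at 0 on both sides of the comparison of WM164 with SKMEL28. With at least 10 counts in every library, which left out CAVIN2 and CAVIN4, the counts were 5, 5 and 3 in the same order. Shares over all genes were not computed for that setting.

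**Figure D1:**
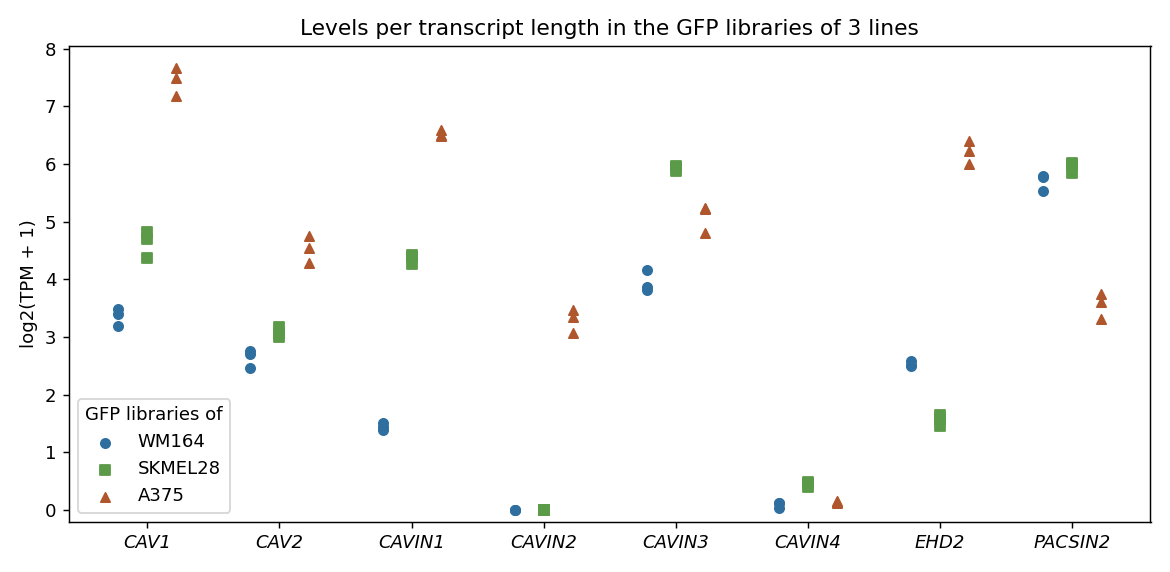
Levels in the GFP libraries of 3 lines, as log2(TPM + 1) on the vertical axis for 8 caveola genes, with 3 points (libraries) per line and no error bar. A375 triangles lie highest for CAV1, CAV2, CAVIN1, CAVIN2 and EHD2 and lowest for PACSIN2, and CAVIN2 is at 0 in WM164 and SKMEL28.

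MAFG overexpression was accompanied by higher caveolin transcripts in WM164. CAV1 had 28.1, 29.7 and 31.0 CPM in the GFP libraries and 47.4, 47.7 and 43.4 CPM in the MAFG libraries, and rose 1.56-fold (log2 fold change 0.64 ± 0.07, edgeR adjusted p = 2.36e-06). CAV2 had 22.4, 20.3 and 24.5 CPM with GFP and 27.2, 27.2 and 32.0 with MAFG (0.36 ± 0.09, edgeR adjusted p = 0.00553). The 2 groups did not overlap for either gene.

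In SKMEL28 the caveolins moved less. CAV1 had 60.3, 53.4 and 50.6 CPM with GFP and 64.8, 67.8 and 59.6 with MAFG, and rose by a log2 fold change of 0.23 ± 0.07 (edgeR adjusted p = 0.0314), with overlapping groups. This call was lost in 7 of 14 alternative settings, including the omission of any of 4 libraries (GFP replicates 2 and 3, MAFG replicates 1 and 2), with adjusted p of 0.0798 to 0.148. CAV2 had 17.2 to 20.05 CPM with GFP and 16.1 to 18.7 with MAFG (log2 fold change -0.09, edgeR adjusted p = 0.536).

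In A375, where the caveolins were most abundant, neither passed. CAV1 had 430, 425 and 394 CPM with GFP and 342, 364 and 366 with MAFG, so the groups did not overlap, at a log2 fold change of -0.22 ± 0.09 (edgeR adjusted p = 0.652). CAV2 had 65.2 to 77.0 CPM with GFP and 60.9 to 66.1 with MAFG (-0.21 ± 0.11, edgeR adjusted p = 0.902). Within the caveolins, the mean ratio of CAV1 to CAV2 TPM was 1.77 with GFP and 2.27 with MAFG in WM164, 3.22 and 5.20 in SKMEL28, and 7.89 and 8.39 in A375. The A375 libraries overlapped, at 7.79 to 8.07 with GFP and 6.65 to 9.70 with MAFG. The size of the change in SKMEL28 depends on the scale, as mean CAV2 was 7.47 and 5.33 TPM but 18.4 and 17.3 CPM (GFP, MAFG).

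**Figure D2:**
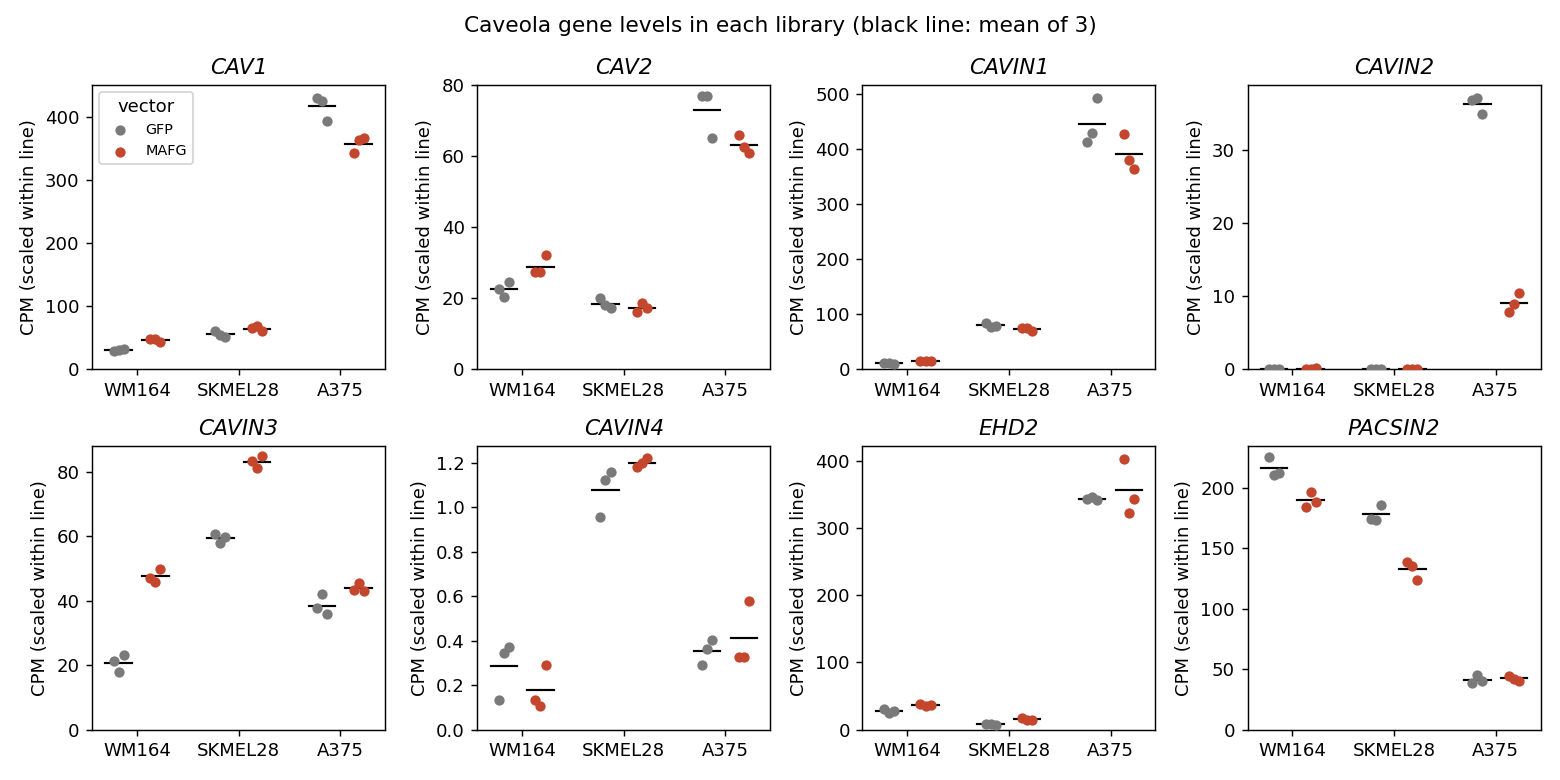
Levels of 8 caveola genes in each of the 18 libraries, in CPM scaled within a line, grey for GFP and red for MAFG, with a black line at the mean of 3; each panel has its own axis from 0. CAVIN3 is higher with MAFG in WM164 and SKMEL28, CAVIN2 is lower with MAFG in A375, and PACSIN2 is lower with MAFG in WM164 and SKMEL28.

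Among the cavins, CAVIN3, which binds caveolin and was described as a protein kinase C substrate, rose in WM164 and SKMEL28. In WM164 it had 21.3, 17.9 and 23.0 CPM with GFP and 47.0, 45.8 and 49.9 with MAFG, a log2 fold change of 1.198 ± 0.09 (edgeR adjusted p = 7.77e-09), and it was the single member past 2-fold in that line. In SKMEL28 it had 60.6, 57.8 and 59.6 CPM with GFP and 83.3, 81.1 and 84.7 with MAFG (0.48 ± 0.06, edgeR adjusted p = 1.25e-05). In both lines every MAFG library was above every GFP library. In A375 it had 37.6, 41.9 and 35.8 CPM with GFP and 43.2, 45.6 and 43.1 with MAFG, without overlap, but did not pass (0.19 ± 0.11, edgeR adjusted p = 0.943).

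CAVIN2, which helps to curve the caveolar membrane, fell about 4-fold in A375. Its counts were 1275, 1233 and 1127 with GFP and 288, 299 and 394 with MAFG, or 36.3 ± 1.14 and 9.02 ± 1.28 CPM (SD, n = 3). The log2 fold change was -2.01 ± 0.14 (edgeR adjusted p = 4.98e-05), and every MAFG library was below every GFP library. It was 1 of 10 genes that fell in A375 among 15779 tested. In the other lines CAVIN2 had 0 counts, except for 4 counts in replicate 3 of WM164 with MAFG, so no change could be tested there. In A375 the summed level of melanocyte markers, given above, rose as CAVIN2 fell, and that of the smooth muscle markers fell. Of the melanocyte markers, SOX10 had 2.61 TPM with GFP and 32.1 with MAFG, whereas MITF had 9.41 and 9.45. The part of these markers in the result was not tested.

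CAVIN1 moved with the caveolins in WM164. It had 11.5, 9.91 and 9.26 CPM with GFP and 13.8, 13.8 and 13.9 with MAFG, and rose by a log2 fold change of 0.43 ± 0.11 (edgeR adjusted p = 0.00484). In SKMEL28 it had 76.9 to 84.3 CPM with GFP and 68.7 to 74.5 with MAFG (-0.14 ± 0.06, edgeR adjusted p = 0.110), and in A375 412 to 492 and 364 to 428 (-0.19 ± 0.10, edgeR adjusted p = 0.939). CAVIN4 was tested in SKMEL28 and A375, where it stayed at or below 1.22 CPM with log2 fold changes of 0.16 ± 0.36 and 0.22 ± 0.67, and in WM164 it had 3 to 11 counts and did not pass the filter on low counts.

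The make-up of the cavin transcripts differed accordingly. CAVIN3 made up 88.8% ± 1.74 of summed cavin TPM in GFP cells of WM164 and 93.2% ± 0.14 in MAFG cells (SD, n = 3), 75.0% ± 0.50 and 82.0% ± 0.90 in SKMEL28, and 24.9% ± 2.62 and 31.2% ± 1.79 in A375. CAVIN2 made up 6.63% ± 0.53 in GFP cells and 1.83% ± 0.36 in MAFG cells of A375. The CAVIN3 share was thus higher in MAFG than in GFP libraries of each line. In A375 CAVIN3 itself was at 33.3 TPM with GFP and 34.7 with MAFG. There CAVIN1 was at 90.9 and 74.1 TPM and CAVIN2 at 8.87 and 2.04, so a higher share is not a higher CAVIN3 level.

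**Figure D3:**
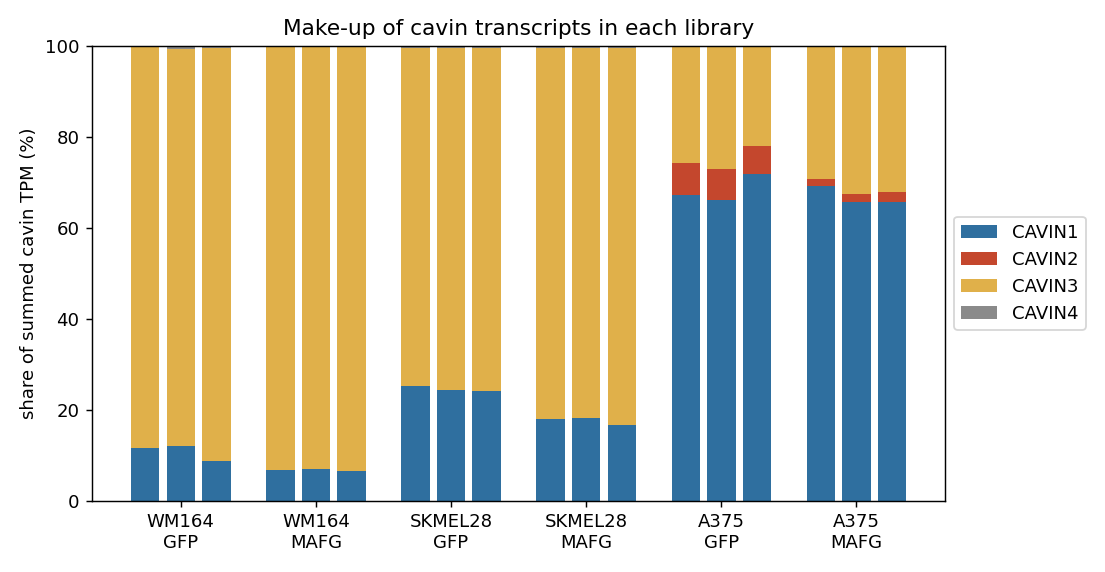
Make-up of cavin transcripts: each bar is a library, stacked as shares of its summed TPM of CAVIN1, CAVIN2, CAVIN3 and CAVIN4, with 3 bars for each condition. CAVIN3 fills most of the bar in WM164 and SKMEL28 and CAVIN1 most of it in A375, where the CAVIN2 band shrinks with MAFG.

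EHD2, which stabilises the neck of caveolae, rose in WM164 and SKMEL28. In SKMEL28 it had 8.05, 8.14 and 7.28 CPM with GFP and 17.8, 14.2 and 14.9 with MAFG, a log2 fold change of 1.002 ± 0.12 (edgeR adjusted p = 1.76e-05). It sat at the 2-fold limit and fell short of it without GFP replicate 3 (0.95) or without MAFG replicate 1 (0.90), although it passed the test in both. In WM164 it had 30.8, 24.9 and 27.7 CPM with GFP and 37.6, 35.8 and 37.1 with MAFG (0.41 ± 0.08, edgeR adjusted p = 0.000981). In A375 it had 342 to 346 CPM with GFP and 323 to 403 with MAFG, overlapping (0.05 ± 0.10, edgeR adjusted p = 0.997).

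PACSIN2 fell in the same lines. In SKMEL28 it had 174, 173 and 186 CPM with GFP and 138, 136 and 123 with MAFG (log2 fold change -0.42 ± 0.06, edgeR adjusted p = 6.78e-05). In WM164 it had 225, 211 and 212 CPM with GFP and 184, 196 and 188 with MAFG (-0.19 ± 0.05, edgeR adjusted p = 0.0116). The fall in WM164 did not hold on the TPM scale, where the means were 51.2 with GFP and 53.4 with MAFG, and it was lost without MAFG replicate 1 (edgeR adjusted p = 0.0717) and with all 18 libraries in one model (edgeR adjusted p = 0.108). In A375 PACSIN2 had 38.3 to 45.4 CPM with GFP and 40.2 to 44.6 with MAFG (0.03 ± 0.11, edgeR adjusted p = 0.997).

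Counted over the family, WM164 had 6 tested members, of which 5 rose and 1 fell, beside 16.2% and 15.6% of all tested genes, and 1 passed 2-fold, beside 6.94%. SKMEL28 had 7 tested members, of which 3 rose and 1 fell (14.6% and 15.3% of all tested genes) and 1 passed 2-fold (4.74%). A375 had 8 tested members, of which 0 rose and 1 fell (0.780% and 0.0634%) and 1 passed 2-fold (0.665%). The median log2 fold change of the tested members was 0.42, 0.16 and -0.08 in WM164, SKMEL28 and A375, beside a median of 0.00, -0.01 and 0.00 over all tested genes.

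**Figure D4:**
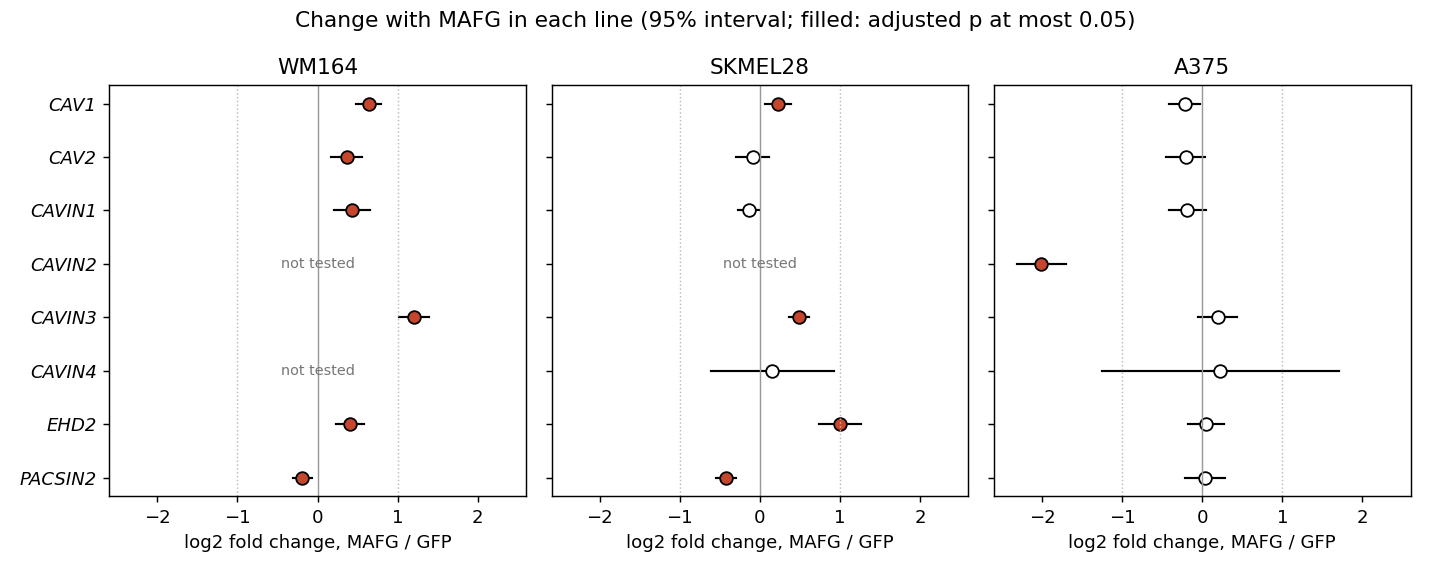
Log2 fold change of MAFG over GFP for each caveola gene in each line, with 95% intervals from edgeR; filled points have an adjusted p of at most 0.05 and dotted lines mark 2-fold. CAVIN3 in WM164 and CAVIN2 in A375 lie beyond the dotted lines and EHD2 in SKMEL28 lies on it.

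The response to MAFG differed between lines for several members when the difference was tested in the model of all 18 libraries. CAV1 responded more in WM164 than in A375 by a log2 difference of 0.86 ± 0.11 (edgeR adjusted p = 1.25e-05), and CAVIN3 by 1.001 ± 0.12 (edgeR adjusted p = 9.50e-06). CAV2 and CAVIN1 also responded more in WM164 than in A375, which makes 4 members with a difference (9.21% of all tested genes). EHD2 responded more in SKMEL28 than in A375 by 0.94 ± 0.15 (edgeR adjusted p = 0.000240), CAV1 responded more there, and PACSIN2 fell more, which makes 3 members (9.51%). Between WM164 and SKMEL28, CAV1, CAV2, CAVIN1 and CAVIN3 responded more in WM164 and EHD2 in SKMEL28, 5 members in all (13.7%). Of these, the CAV2 difference was lost in 9 of 12 fits that left out a library, without a filter on low counts and with the replicate block, and those of CAV1 and EHD2 were lost on both TPM scales. Without GFP replicate 1 of SKMEL28, 3 members remained (CAVIN1, CAVIN3 and EHD2). The CAV2 difference between WM164 and A375 was lost without GFP replicate 2 or MAFG replicate 3 of WM164, and those of CAV1 and PACSIN2 between SKMEL28 and A375 were lost on both TPM scales. On both TPM scales PACSIN2 gained a difference between WM164 and SKMEL28, and EHD2 gained one between WM164 and A375. These contrasts share libraries. No size is given for the response difference of CAVIN2: SKMEL28 had 0 counts in every library, and the fitted difference between WM164 and A375 rests on 4 counts in 1 library against 0 in the GFP cells (edgeR adjusted p = 0.0529), although it passed under some alternatives, DESeq2 among them.

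Relatives that shape membranes (EHD1, EHD3, EHD4, PACSIN1, PACSIN3 and the dynamins, which cut vesicles from the membrane) had 4 of 6 tested genes higher and 2 lower in WM164, at a median log2 fold change of 0.49, beside 16.2% higher and 15.6% lower among all genes tested in that line. DNM3 rose by 1.12 ± 0.12 on the log2 scale, from 8.15 to 17.8 CPM (edgeR adjusted p = 5.81e-07), PACSIN3 by 0.81 and DNM1 by 0.73. In SKMEL28, 1 of 6 was higher and 2 lower (median -0.14), beside 14.6% and 15.3% of all tested genes. EHD1 rose by 0.22, EHD4 fell by 0.22 and DNM2 fell by 0.21 on the log2 scale. In A375, 0 of 7 passed (median 0.01), where 0.780% of all tested genes were higher and 0.0634% lower.

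Partners of caveolae in signalling and the cytoskeleton gave 3 higher and 2 lower of 9 tested genes in WM164, 1 and 2 of 9 in SKMEL28 and 0 of 9 in A375, with medians of 0.06, -0.06 and -0.04. The shares over all tested genes were 16.2% higher and 15.6% lower in WM164, 14.6% and 15.3% in SKMEL28, and 0.780% and 0.0634% in A375, and the partners in SKMEL28 were near theirs. The kinase SRC, which phosphorylates CAV1, rose in WM164 from 0.21 to 1.18 CPM (log2 fold change 2.50 ± 0.49, edgeR adjusted p = 0.000727) and fell in SKMEL28 from 34.5 to 17.9 CPM (-0.95 ± 0.09, edgeR adjusted p = 6.80e-07). PRKCA, a protein kinase C, rose by 0.93 in WM164 and 0.77 in SKMEL28, PRKCD rose by 0.64 in WM164, and FYN fell by 0.25 in SKMEL28. The flotillins, scaffold proteins of other membrane domains, gave 1 of 2 lower in WM164 (FLOT1, -0.68), 2 of 2 lower in SKMEL28 (FLOT1 and FLOT2, both -0.25) and 0 of 2 in A375, with medians of -0.38, -0.25 and 0.07, beside the same shares.

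Target genes of the mechanical sensors YAP and TEAD, a pathway that regulates caveola genes in other cells, gave 5 higher and 0 lower of 8 tested in WM164 and 5 higher and 1 lower of 9 in SKMEL28, with medians of 0.52 and 0.60. Over all tested genes 16.2% were higher and 15.6% lower in WM164, and 14.6% and 15.3% in SKMEL28. AXL, a receptor kinase, rose from 3.11 to 27.3 CPM in WM164 and from 0.56 to 22.03 CPM in SKMEL28 (log2 fold changes of 3.13 and 5.25). The authors report a rise of AXL too, and MAFG binding without MITF at its locus in WM164. CCN2 rose by 1.70 and AMOTL1 by 0.997 in WM164, and CCN1 rose by 1.87 and CRIM1 by 0.91 in SKMEL28, where CCN2 fell by 0.81. In A375, 0 of 10 passed (median -0.21), beside 0.780% higher and 0.0634% lower over all tested genes. A link of this list to the caveola genes was not tested.

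Among the chromosomal neighbours of CAV1 and CAV2, 0 of 4 tested genes was higher and 3 were lower in WM164, where both caveolins rose (median -0.49; 16.2% higher and 15.6% lower over all tested genes). These were MET, a receptor kinase, with a log2 fold change of -1.30, from 9.77 to 3.97 CPM, TES with -0.51 and ST7 with -0.46. In SKMEL28, 1 of 4 was higher and 1 lower, beside 14.6% and 15.3% over all tested genes. There MET fell from 62.6 to 19.6 CPM (-1.68 ± 0.07, edgeR adjusted p = 7.54e-11) and ST7 rose by 0.28, with a median of -0.08. In A375, 0 of 4 passed (median 0.15), as neither caveolin did.

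Across the 18 libraries, the genes with the levels most like those of CAV1 were GNPNAT1, GEMIN5, NSUN2, ILF2 and MAPK1IP1L (Pearson r of log2 CPM 0.991 to 0.994 among 18767 genes). For CAVIN1 they were FOSL1, TUBB6, PDE12, FBXO27 and PSME3 (0.995 to 0.997). The points are not independent, since the libraries of a line come from the same cell line, and no test was made of these values.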

How the data were processed

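RNA-seq counts of 18 libraries (3 lines, MAFG or GFP, 3 libraries each) were analysed. After trimming and alignment to GRCh38, the authors used featureCounts to assign unique alignments to genes. The deposited counts are whole numbers and were not normalized. The submitters' processing notes name cutadapt 1.8.1, STAR 2.7.7a, RSEM 1.3.0 and DESeq2. The version of featureCounts, the annotation release and the use of strand are not given in the sources used here. The deposited TPM values were made by the authors and used to compare levels between genes and lines, for ratios and shares of members, beside some of the counts, and in 2 alternatives. All 9 genes matched GENCODE release 44 by gene ID. The members and lists were chosen with earlier results of these data known.

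MAFG and GFP libraries of a line were compared in edgeR 4.0.16 (R 4.3.3; TMM, filterByExpr, quasi-likelihood F test, 6 libraries), with Benjamini-Hochberg adjustment over all tested genes. Lines and responses were compared in a model of all 18 libraries. The standard error is the absolute log2 fold change divided by the square root of F. A gene at 0 was bounded at 3 counts per library. Named genes were all members, and up to 3 genes per list and line with the largest change among those at an adjusted p of 0.05 or less. The 5 genes most like CAV1 and CAVIN1 were ranked by Pearson r. Alternatives were DESeq2 1.42.0, its size factors, no filter, at least 10 counts in every library, a replicate block, all libraries in one model, limma 3.58.1 on log2 TPM with a pseudocount of 1 or 0.1 (genes at 1 TPM or more in 3 libraries), and each library left out. Replicates differed by more than sampling noise (mean chi-square per gene at least 5.90 over 18 pairs). The highest values were in A375 with MAFG, 68.7 and 96.7 for replicate 1 against replicates 2 and 3, which gave 15.8 against each other. Floors cover counting error only, whereas the standard errors and intervals include the spread between libraries.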

Additional observations from a re-analysis of the deposited data

Results flagged for a closer look

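The response to MAFG differed between lines, by a test of the difference itself in edgeR, for 12 pairs of a member and 2 lines. The log2 fold change in WM164 minus that in SKMEL28 was 0.42 for CAV1 (edgeR adjusted p = 0.0133), 0.46 for CAV2 (0.0467), 0.57 for CAVIN1 (0.00639), 0.72 for CAVIN3 (0.000379) and -0.59 for EHD2 (0.0116). That in WM164 minus that in A375 was 0.86 for CAV1, 0.57 for CAV2 (edgeR adjusted p = 0.0145), 0.61 for CAVIN1 (0.00462) and 1.001 for CAVIN3. That in SKMEL28 minus that in A375 was 0.44 for CAV1 (edgeR adjusted p = 0.0104), 0.94 for EHD2 and -0.46 for PACSIN2 (0.00914). Groups of 3 were not screened for single libraries far from the rest.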

How the results depend on the processing

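Of the 12 counts of members, recomputed under each alternative, 174 values stayed within 1.5 times the reported one and 6 did not. The count past 2-fold in SKMEL28, 1 as reported, was 0 with the replicate block, 0 on log2(TPM + 1) and 0 on log2(TPM + 0.1), and 0 to 1 when each library was left out; the member is EHD2, at the 2-fold limit. The count with a response difference between WM164 and SKMEL28, 5 as reported, ranged from 3 when a library was left out. Among recomputed fold changes of members, 270 kept their direction and side of the threshold, 9 lost their call without a change of sign, 1 gained it and 10 changed sign. The sign changes include PACSIN2 in WM164 on both TPM scales, where its call was lost as well. PACSIN2 in WM164 was 0.0597 and 0.0607 with a pseudocount of 1 and 0.1 on TPM, where the median of all genes was 0.14 and 0.16, so that relative to it PACSIN2 was at -0.08 and -0.10. In A375 on the same scales, EHD2 was -0.0298 and -0.0300 and PACSIN2 -0.0305 and -0.0320. With a library left out in A375, EHD2 ranged from -0.0477 (without MAFG replicate 1) to 0.116, PACSIN2 from -0.0229 (without GFP replicate 1) to 0.0950 and CAVIN4 from -0.107 (without MAFG replicate 3) to 0.364; none of these passed. On these scales the median over all genes was -0.14 and -0.17 in SKMEL28 and -0.10 and -0.12 in A375. CAV2 in SKMEL28 passed on log2(TPM + 0.1) (-0.49, limma adjusted p = 0.04996). CAVIN2 in A375 was between -2.12 and -1.70 in 14 alternatives, with adjusted p of at most 0.0298. Same-numbered libraries did not deviate together (correlations of -0.0397 to 0.0302), so the numbers are not taken as pairs, and with the block the count past 2-fold in SKMEL28 changed as above, CAV2 lost its response difference between WM164 and SKMEL28 (4 members in place of 5), and no other call on a member changed. The number of genes that passed over the whole table moved more. In A375 it was 133 as reported, 64 with the block, 84 with at least 10 counts in every library, 248 with DESeq2, 328 without a filter, 506 with all 18 libraries in one model, and 19 and 15 on the TPM scales. When a library of A375 was left out, it ranged from 59 (without MAFG replicate 2) to 393 (without MAFG replicate 1). Of the members, CAVIN2 alone passed in either of these fits. In WM164 it was 5065 as reported, 3022 with all 18 libraries in one model and 1918 and 1853 on the TPM scales, and in SKMEL28 4640, 3038, 2575 and 2542. Genes with few counts, such as CAVIN4, are limited by depth.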
